A study of Mus musculus with 5 samples.

Results

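Apoptotic cells are cleared by phagocytes that recognise phosphatidylserine, a lipid moved to the outer leaflet of the dying cell. Receptors of the TIM family bind it directly, whereas the TAM kinases bind it through soluble bridging proteins, and adaptors inside the phagocyte then drive the actin-dependent engulfment. In the liver, Kupffer cells, the resident macrophages of the sinusoids, are the main cells known for this uptake. The 10 genes described here were chosen by name, as phosphatidylserine receptors (*Timd4*, *Havcr1*), TAM kinases (*Axl*, *Mertk*, *Tyro3*), bridging proteins and their cofactor (*Gas6*, *Mfge8*, *Tgm2*) and engulfment adaptors (*Elmo1*, *Gulp1*), out of 18820 genes measured. Each of the 10 was represented by 1 transcript row of the array, annotated to that gene alone.

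Liver RNA was hybridised to Affymetrix Mouse Gene 1.1 ST arrays, 1 array per mouse. The CSF1-Fc group was 3 adult C57BL/6 mice (6 to 10 weeks old in the study's methods) that received subcutaneous pig CSF1 fused to the pig immunoglobulin Fc region, at 1 mg/kg, on 4 consecutive days. The PBS group was 2 adult C57BL/6 mice injected with phosphate-buffered saline on the same schedule, and all mice were killed on day 5. The injected protein is of pig origin, and the labels do not give the sex of these mice. CSF1 is the growth factor on which most macrophages depend, and the arrays were run to ask how CSF1-Fc changes gene expression in the liver. Values are log2 normalised intensities, and a gene was called when its adjusted p from limma was under 0.05, with adjustment over all 35556 rows. The precision of every value is limited by there being 3 arrays against 2. Whole liver was measured, so a change in the number of cells of a type and a change in RNA per cell cannot be told apart.

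The promoters of 6 members are shown because they hold related genes of which some were called and others were not, with *Elmo1* added as the adaptor that rose. Promoter sequences from RefSeq (build GRCm38.p6, 250 bases before to 50 after an annotated start) matched 9 of the 10 members, all but *Tgm2*, at 12 starts in all. *Havcr1* had 3 starts and *Elmo1* had 2, and the start with the lowest coordinate is shown for each. The windows are chr11:46810549-46810848 (plus strand) for *Timd4*, chr11:46739973-46740272 (plus strand) for *Havcr1*, chr7:25788684-25788983 (minus strand) for *Axl*, chr2:128698665-128698964 (plus strand) for *Mertk*, chr2:119799264-119799563 (plus strand) for *Tyro3* and chr13:20090257-20090556 (plus strand) for *Elmo1*. Capitals mark GAGGAA (a core bound by PU.1, a macrophage transcription factor), AGGTCA (a core bound by nuclear receptors), TGCTGAC (a core bound by MAF factors) and a composite ETS and IRF element, each searched on both strands and with no overlap between matches of different motifs here. The last of these was added after the *Timd4* sequence had been read.
Timd4: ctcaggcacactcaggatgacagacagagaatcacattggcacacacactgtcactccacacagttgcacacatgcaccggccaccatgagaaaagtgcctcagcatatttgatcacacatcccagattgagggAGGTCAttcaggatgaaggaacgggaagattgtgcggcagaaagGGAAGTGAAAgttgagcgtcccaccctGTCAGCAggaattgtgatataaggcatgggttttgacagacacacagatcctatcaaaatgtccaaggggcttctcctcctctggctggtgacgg
Havcr1: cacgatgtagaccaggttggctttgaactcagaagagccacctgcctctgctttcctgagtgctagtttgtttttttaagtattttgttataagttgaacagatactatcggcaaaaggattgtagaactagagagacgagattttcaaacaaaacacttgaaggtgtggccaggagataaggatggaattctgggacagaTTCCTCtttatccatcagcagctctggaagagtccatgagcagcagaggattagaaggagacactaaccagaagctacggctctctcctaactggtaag
Axl: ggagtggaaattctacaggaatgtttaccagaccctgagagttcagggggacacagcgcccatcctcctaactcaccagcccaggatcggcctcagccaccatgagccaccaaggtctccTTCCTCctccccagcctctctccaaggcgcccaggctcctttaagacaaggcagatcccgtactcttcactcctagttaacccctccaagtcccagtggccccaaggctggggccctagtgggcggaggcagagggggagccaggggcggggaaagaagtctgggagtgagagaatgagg
Mertk: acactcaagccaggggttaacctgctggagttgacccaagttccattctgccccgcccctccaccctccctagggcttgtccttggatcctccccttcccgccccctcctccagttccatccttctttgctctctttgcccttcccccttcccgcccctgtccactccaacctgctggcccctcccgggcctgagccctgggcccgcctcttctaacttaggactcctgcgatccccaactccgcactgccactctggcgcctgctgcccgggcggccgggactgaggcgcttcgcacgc
Tyro3: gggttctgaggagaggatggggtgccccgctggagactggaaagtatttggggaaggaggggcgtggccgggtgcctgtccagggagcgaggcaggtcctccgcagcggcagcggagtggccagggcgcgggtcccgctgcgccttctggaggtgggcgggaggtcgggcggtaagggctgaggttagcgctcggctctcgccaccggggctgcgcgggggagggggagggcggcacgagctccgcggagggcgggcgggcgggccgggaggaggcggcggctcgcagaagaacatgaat
Elmo1: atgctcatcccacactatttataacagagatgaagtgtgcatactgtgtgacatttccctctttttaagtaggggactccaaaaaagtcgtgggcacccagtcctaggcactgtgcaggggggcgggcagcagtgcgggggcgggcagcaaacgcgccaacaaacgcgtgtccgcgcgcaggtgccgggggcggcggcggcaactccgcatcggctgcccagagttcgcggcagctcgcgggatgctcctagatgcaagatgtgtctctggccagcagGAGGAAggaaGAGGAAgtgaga
Among all 32851 promoter windows of this length, GAGGAA was in 28.3%, AGGTCA in 16.3%, TGCTGAC in 4.67% and the composite element in 2.72%. GAGGAA was in 4 of the 12 member windows, those of *Havcr1*, *Axl*, *Mfge8* and *Elmo1*, which include genes that rose and genes that were not called. AGGTCA was in 2 of the 12, that of *Timd4* and that of a *Havcr1* start not shown (at -2). The *Timd4* window held 3 of the 4 motifs, counting the composite element that was added after it was read. AGGTCA started at -116, the composite element at -72 and TGCTGAC, on the opposite strand, at -45 relative to the start. No such letters were in the windows of *Mertk* or *Tyro3*. The *Tyro3* window was the richest in G and C of those shown (73.3%, with 31 CpG), against 66.0% and 14 CpG for *Mertk* and 60.3% and 6 CpG for *Axl*, and the median of all windows was 52.7% and 7 CpG. These matches describe letters in a window and are not evidence of binding.

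Of the 10 members, 5 were higher in CSF1-Fc livers, namely *Timd4*, *Axl*, *Elmo1*, *Mertk* and *Tgm2*, and 0 were lower. Among all genes 8.34% were called higher and 3.95% lower. The changes of the 5 ran between 1.91-fold and 6.59-fold. For these 5 genes every CSF1-Fc liver lay above both PBS livers, a pattern found in 18.2% of all genes. *Havcr1* and *Gulp1* lay below both PBS livers in all 3 CSF1-Fc livers, a pattern found in 29.3% of all genes, and neither was called. The median log2 fold change of the members was 0.50, and that of all genes was -0.08. At an unadjusted p under 0.05 from limma, the counts were also 5 members higher and 0 lower, against 13.2% and 14.5% of all genes.

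**Figure D1:**
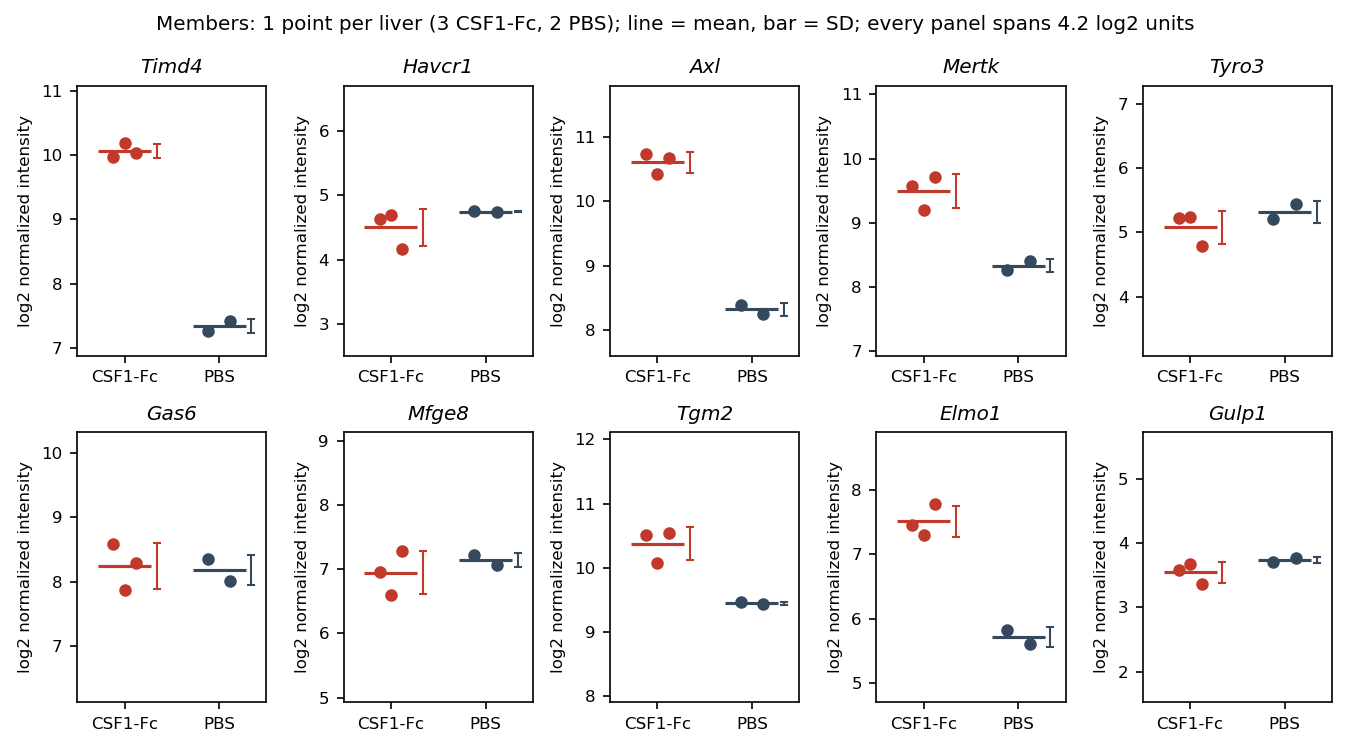
Log2 normalised intensity (vertical axis) of each member in each liver, with CSF1-Fc livers in red (3 points) and PBS livers in dark blue (2 points); lines are group means and bars are SD. The red points lie clear above the blue ones for *Timd4*, *Axl*, *Mertk*, *Tgm2* and *Elmo1*, and the groups overlap for *Tyro3*, *Gas6* and *Mfge8*, while the red points of *Havcr1* and *Gulp1* lie below the blue ones.

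*Timd4*, a receptor that binds phosphatidylserine and that marks resident Kupffer cells in mouse liver, changed most among the members. It was at 9.98, 10.18 and 10.03 in the CSF1-Fc livers and at 7.26 and 7.42 in the PBS livers. The lowest CSF1-Fc liver was 2.55 log2 units above the highest PBS liver, while the 3 CSF1-Fc livers lay within 0.20 of each other. The log2 fold change was 2.72 (standard error 0.14, 95% interval 2.39 to 3.05, adjusted p = 0.000357 from limma), which is 6.59-fold, larger than that of 99.1% of genes. *Havcr1*, also called TIM-1, is a second phosphatidylserine receptor of the family, best known from injured kidney epithelium and lymphocytes. It was dim, at 4.64, 4.70 and 4.17 in CSF1-Fc livers and at 4.75 and 4.74 in PBS livers. Its log2 fold change was -0.24 (95% interval -0.70 to 0.21, adjusted p = 0.512 from limma). The upper end of that interval was 1.16-fold, in array signal from a row under a log2 intensity of 5 in every liver. The 2 genes are neighbours on chromosome 11, with *Havcr1* at chr11:46739822-46779578 and *Timd4* at chr11:46810786-46844333 in GRCm38.p6, 31.2 kb apart. *Timd2* and *Havcr2*, further TIM genes of the same stretch of chromosome 11, were named after their values were seen. *Timd2* averaged 8.51 ± 0.07 in CSF1-Fc livers (SD, n = 3) and 8.99 ± 0.02 in PBS livers (SD, n = 2), with no overlap (log2 fold change -0.48, adjusted p = 0.0699 from limma). It was called lower under 3 of the alternatives, at adjusted p = 0.0472 with quantile normalisation, 0.0317 on rows of 1 symbol and 0.0175 with array weights. *Havcr2*, or TIM-3, was dim, at 4.77, 4.79 and 5.15 in CSF1-Fc livers and at 4.37 and 4.62 in PBS livers (log2 fold change 0.41, adjusted p = 0.223 from limma).

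The TAM kinases are receptor tyrosine kinases that carry out uptake and also restrain inflammatory signalling in phagocytes. Of the 3, *Axl* and *Mertk* were called higher. *Axl*, which in mouse macrophages is induced by interferons and binds *Gas6* protein, was at 10.73, 10.42 and 10.67 in CSF1-Fc livers and at 8.39 and 8.25 in PBS livers. The groups were 2.03 log2 units apart at their nearest points, and the log2 fold change was 2.29 (standard error 0.15, 95% interval 1.92 to 2.65, adjusted p = 0.000453 from limma), or 4.88-fold. *Mertk*, the TAM kinase that resting tissue macrophages use for uptake, was at 9.57, 9.19 and 9.72 in CSF1-Fc livers and at 8.27 and 8.40 in PBS livers. All CSF1-Fc livers were above both PBS livers by at least 0.79, and the difference of 1.16 log2 units, or 2.23-fold (95% interval 1.64 to 3.04), had an adjusted p of 0.0136 from limma. With any 1 mouse left out its log2 fold change was 1.05 to 1.31, but the adjusted p became 0.103 when PBS replicate 1 was left out, 0.0853 for PBS replicate 2 and 0.0646 for CSF1-Fc replicate 1, and it was 0.136 with no moderation of the variance. *Tyro3*, prominent in the nervous system, was fairly dim, with 44.6% of genes dimmer. It was at 5.22, 5.24 and 4.79 in CSF1-Fc livers and at 5.20 and 5.45 in PBS livers. Those values overlapped, and the log2 fold change was -0.24 (95% interval -0.69 to 0.21, adjusted p = 0.506 from limma).

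**Figure D2:**
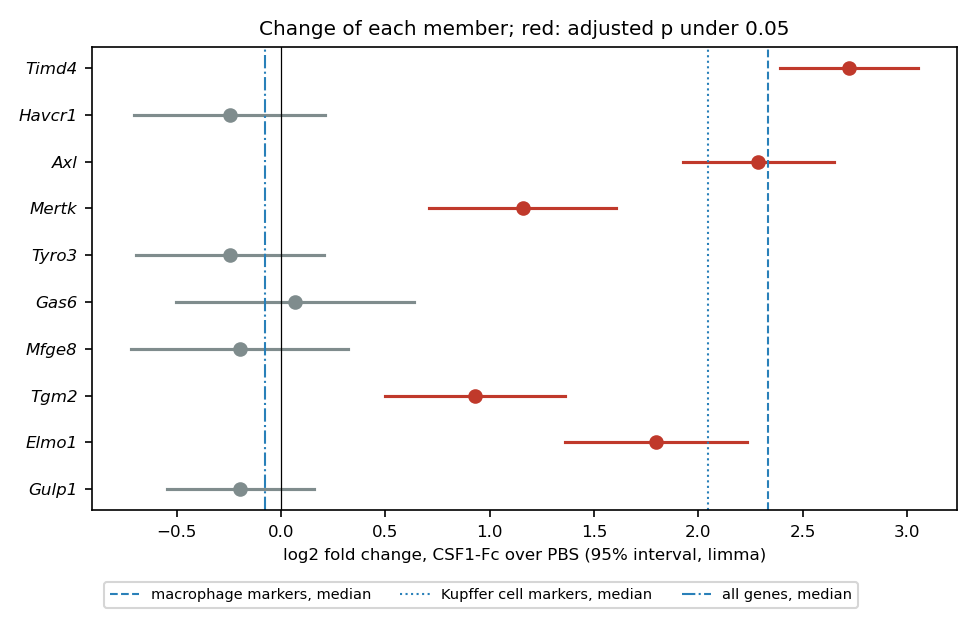
Log2 fold change of each member, CSF1-Fc over PBS, with its 95% interval from limma; red marks an adjusted p under 0.05. Blue lines give the median over 12 macrophage markers (2.34), 14 Kupffer cell markers (2.05) and all genes (-0.08), and *Timd4* is the only member whose point (2.72) lies to the right of both marker medians. The changes of single markers, not drawn, ran from 1.09 to 2.87 (macrophage) and from 0.05 to 2.71 (Kupffer cell).

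The 2 bridging proteins among the members, *Gas6* and *Mfge8*, were not called. *Gas6*, the vitamin K-dependent ligand that links phosphatidylserine to the TAM kinases, was at 8.58, 7.86 and 8.30 in CSF1-Fc livers and at 8.35 and 8.01 in PBS livers. The PBS livers lay inside the CSF1-Fc range, and the log2 fold change was 0.07 (standard error 0.24, 95% interval -0.50 to 0.64, adjusted p = 0.906 from limma). Its sign turned, to -0.10 when PBS replicate 2 was left out and to -0.10 when CSF1-Fc replicate 1 was. *Mfge8*, or lactadherin, which links phosphatidylserine to alpha-v integrins, was at 6.96, 6.60 and 7.28 in CSF1-Fc livers and at 7.22 and 7.07 in PBS livers. Again the groups overlapped, with a log2 fold change of -0.20 (95% interval -0.72 to 0.32, adjusted p = 0.651 from limma). The intervals of the 2 bridging proteins reached no higher than 1.56-fold for *Gas6* and 1.25-fold for *Mfge8*. *Tgm2*, the transglutaminase that acts with beta-3 integrin and lactadherin in mouse macrophages, did rise. It was at 10.51, 10.08 and 10.55 in CSF1-Fc livers and at 9.46 and 9.43 in PBS livers. The groups were 0.62 apart at their nearest points, and the log2 fold change was 0.93 (standard error 0.18, 95% interval 0.50 to 1.36, adjusted p = 0.026 from limma), or 1.91-fold. Its log2 fold change was 0.84 to 1.08 with any 1 mouse left out, but the call was lost in 3 of those 5 fits: leaving out PBS replicate 1 gave an adjusted p of 0.137, PBS replicate 2 gave 0.171 and CSF1-Fc replicate 1 gave 0.105, and the fit that did not moderate the variance gave 0.167.

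Of the 2 adaptors, *Elmo1* rose, and *Gulp1* was dim and not called. *Elmo1*, which with a DOCK protein activates Rac downstream of uptake receptors, was at 7.46, 7.31 and 7.79 in CSF1-Fc livers and at 5.83 and 5.61 in PBS livers. The lowest CSF1-Fc liver was 1.48 above the highest PBS liver. Its log2 fold change was 1.80 (standard error 0.18, 95% interval 1.36 to 2.23, adjusted p = 0.00196 from limma), or 3.47-fold, and the adjusted p was 0.0736 with no moderation of the variance. *Gulp1*, an adaptor that binds the tails of engulfment receptors, was at 3.59, 3.68 and 3.36 in CSF1-Fc livers and at 3.70 and 3.77 in PBS livers. It was the dimmest member, with 20.2% of genes dimmer, and its log2 fold change was -0.19 (95% interval -0.55 to 0.16, adjusted p = 0.497 from limma). Among the CSF1-Fc livers, replicate 2 was the lowest for 6 of the 10 members, and for 4 of the 5 that rose (*Axl*, *Mertk*, *Tgm2* and *Elmo1*), whereas for *Timd4* it was the highest. This order was not particular to the members. Replicate 2 also had the lowest median log2 value over all rows (4.96, against 4.98 for replicate 1 and 5.05 for replicate 3). Its mean was the lowest of the CSF1-Fc livers for the macrophage and hepatocyte markers too, though not for the Kupffer cell markers.

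Members of the same role were then compared within each liver, as the log2 ratio of their intensities, over 6 pairs. Relative to its mean in PBS livers, the *Axl* over *Mertk* ratio was at 1.18, 1.24 and 0.97 in CSF1-Fc livers and at 0.14 and -0.14 in PBS livers. The groups did not overlap and differed by 1.13 log2 units. Nor did the groups overlap for *Axl* over *Tyro3* (difference 2.53) or *Mertk* over *Tyro3* (1.40). *Tyro3* was not called, so these differences mostly restate the changes of *Axl* (2.29) and *Mertk* (1.16). For *Timd4* over *Havcr1* (2.97) and *Elmo1* over *Gulp1* (1.99) the groups were also apart, but *Havcr1* and *Gulp1* lay under a log2 intensity of 5 in every liver, so these ratios mostly restate the changes of *Timd4* (2.72) and *Elmo1* (1.80). The exact two-sided permutation test gave p = 0.1 for each of these 5 pairs (0.12 after Benjamini-Hochberg adjustment over the 6), and 0.1 is the smallest p that 3 livers against 2 allow. *Gas6* over *Mfge8* was at 0.59, 0.23 and -0.02 in CSF1-Fc livers and at 0.09 and -0.09 in PBS livers, with a difference of 0.27 (exact permutation p = 0.4).

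**Figure D3:**
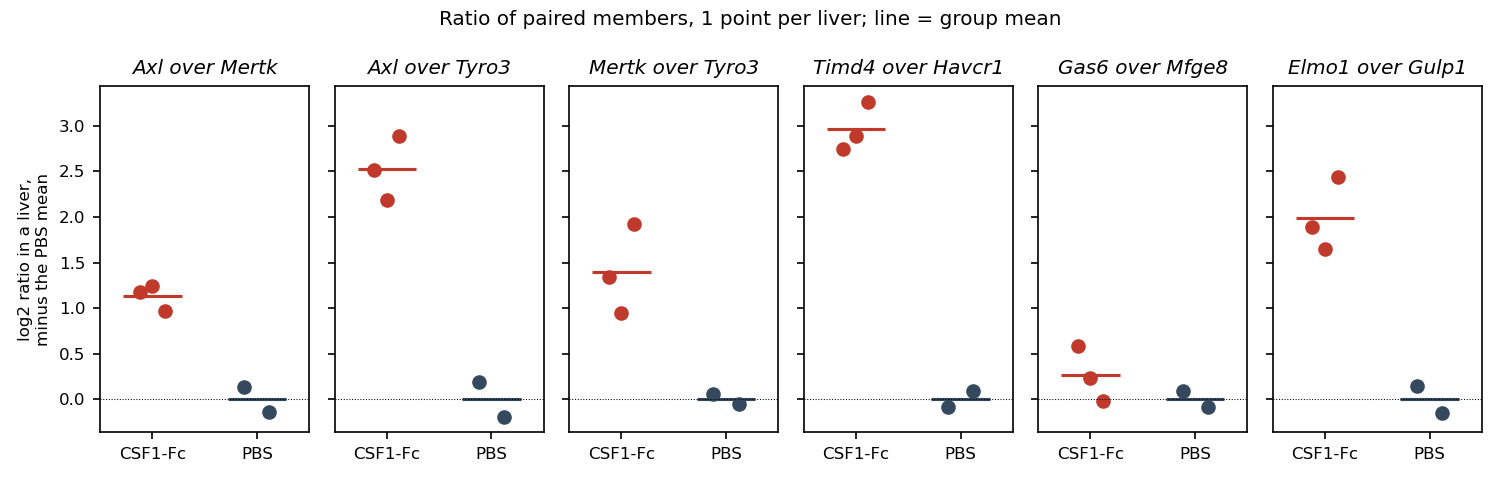
Log2 ratio of 2 members in each liver, minus the mean of that ratio in PBS livers (vertical axis), for 6 pairs; red points are the 3 CSF1-Fc livers, dark blue points the 2 PBS livers, and lines are group means. The red points lie above the blue ones for every pair except *Gas6* over *Mfge8*, and *Havcr1* and *Gulp1* are dim in every liver.

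Markers of macrophages and of some other leukocytes were higher in the same livers. All 12 of 12 macrophage markers were higher (median log2 fold change 2.34), and their mean log2 intensity per liver was 9.63 to 9.74 in CSF1-Fc livers and 7.53 to 7.60 in PBS livers. Of 14 Kupffer cell markers, a list that leaves out *Timd4*, 13 were higher (median 2.05), with means of 10.51 to 10.68 in CSF1-Fc livers and 8.56 to 8.88 in PBS livers. Monocyte markers were higher for 3 of 5 measured (means of 8.91 to 9.36 in CSF1-Fc livers and 7.35 to 7.50 in PBS livers). The monocyte markers *F10* and *Fn1* were not called and were below both PBS livers in every CSF1-Fc liver (log2 fold changes -0.37 and -0.51). Both were bright, at 10.77 and 12.10 in PBS livers against 4.60 for *Ccr2*, and so raised these means. Neutrophil markers were higher for 7 of 7 (7.38 to 7.50 in CSF1-Fc livers and 4.19 to 4.78 in PBS livers). The study's histology found no neutrophil infiltration of the liver that would point to damage, while its blood counts showed neutrophilia. Hepatocyte markers, which identify the tissue, were bright in every liver (12.06 to 12.35 in CSF1-Fc livers and 12.47 to 12.65 in PBS livers), with 0 of 6 called. In every CSF1-Fc liver 4 of these 6 lay below both PBS livers, a pattern found in 29.3% of all genes. Sinusoidal endothelial and stellate cell markers were higher for 0 of 8 and 0 of 8, and lower for 1 and 2. B cell markers were higher for 3 of 3, cycling markers for 4 of 4, NK and T cell markers for 2 of 6, dendritic cell markers for 1 of 6 and cholangiocyte markers for 0 of 4. No marker was listed at 0. Beside the macrophage median of 2.34 (range 1.09 to 2.87), the log2 fold changes were 2.72 for *Timd4*, 2.29 for *Axl*, 1.80 for *Elmo1*, 1.16 for *Mertk* and 0.93 for *Tgm2*. Medians of the other lists with markers called higher were 4.01 (cycling), 3.22 (neutrophil), 2.04 (monocyte), 1.58 (B cell), 0.48 (NK and T cell) and 0.33 (dendritic cell). Marker lists with none called higher had medians of -0.37 (hepatocyte), -0.34 (sinusoidal endothelial), -0.58 (stellate cell) and -0.28 (cholangiocyte). The part of these cell types in the members' changes was not tested.

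Other genes of apoptotic cell uptake, taken from a list by role, were higher more often than lower. Of 132 measured out of 144 listed, 47 were higher (35.6%), 2 were lower and 83 were not called, with a median log2 fold change of 0.19. Among all genes 8.34% were called higher and 3.95% lower. The 8 that also stand in a cell type marker list gave 6 of the 47. Without PBS replicate 2 the count higher was 29, with no moderation of the variance it was 20, and 0 were lower when PBS replicate 1, PBS replicate 2 or CSF1-Fc replicate 1 was left out. Among 21 other recognition receptors 8 were higher and 0 lower, led by the lipid receptor *Trem2* (log2 fold change 3.09, adjusted p = 0.000447) and the CD300 receptors *Cd300a* (2.32) and *Cd300lf* (1.94, and dim at a mean of 3.97 in PBS livers). Of 15 bridges and opsonins 6 were higher and 0 lower, including the galectin *Lgals3* (3.24) and the complement subunits *C1qc* (2.38) and *C1qa* (2.38). *Pros1*, which encodes protein S, a further TAM ligand, was at 8.13, 7.72 and 8.67 in CSF1-Fc livers and at 8.74 and 8.51 in PBS livers. Like *Gas6*, *Pros1* was not called (log2 fold change -0.45, adjusted p = 0.401 from limma). *Itgb5*, an integrin partner for *Mfge8*, rose by 0.78 (adjusted p = 0.0134), while *Itgav* (0.47, adjusted p = 0.299) and *Itgb3* (-0.15, adjusted p = 0.704) were not called. The call for *Itgb5* did not hold without either PBS liver (adjusted p = 0.0915 and 0.131) or CSF1-Fc replicate 1 (0.0702). *Pros1* and the 3 integrin genes were named after their values were seen.

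Partners of *Elmo1* and other parts of the engulfment machinery came next. Of 25 genes measured there, 12 were higher (48%, against 8.34% of all genes), 1 was lower and 12 were not called. The largest changes were those of *Rac2*, the Rac of blood cells (3.30, adjusted p = 0.000357), the exchange factor *Vav1* (2.88) and the phospholipase *Plcg2* (2.74). *Dock2*, the leukocyte partner of *Elmo1*, was at 8.40, 8.25 and 8.64 in CSF1-Fc livers and at 5.73 and 5.76 in PBS livers (log2 fold change 2.69, adjusted p = 0.00042 from limma). The widely expressed *Dock1* was at 7.77, 7.49 and 8.13 in CSF1-Fc livers and at 7.53 and 7.60 in PBS livers (0.23, adjusted p = 0.564), and *Rac1* was at 0.17 (adjusted p = 0.489). *Elmo2* rose by 1.04 (adjusted p = 0.02), and *Elmo3* fell, at 6.77, 6.58 and 7.04 in CSF1-Fc livers and at 7.71 and 7.56 in PBS livers (-0.84, adjusted p = 0.0333). Leaving out PBS replicate 1, PBS replicate 2 or CSF1-Fc replicate 1 ended the calls for *Elmo2* (adjusted p = 0.137, 0.0996 and 0.087) and *Elmo3* (0.195, 0.152 and 0.122), and for *Elmo3* so did leaving out CSF1-Fc replicate 2 (0.0563). *Dock1*, *Dock2*, *Rac1*, *Elmo2* and *Elmo3* were named after their values were seen.

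Of 13 find-me signals and receptors 6 were higher and 1 lower, led by the nucleotide receptors *P2ry6* (3.39) and *P2ry12* (2.83) and the fractalkine receptor *Cx3cr1* (2.63), while the nucleotide receptor *P2ry2* fell (-0.82, adjusted p = 0.0114). Of 7 do-not-eat-me genes 4 were higher, led by the inhibitory receptors *Sirpa* (1.98), *Lilrb4a* (1.90) and *Pirb* (1.44), and *Cd47*, the ligand of *Sirpa*, was at 0.40 (adjusted p = 0.163). Among 7 genes of phosphatidylserine exposure the scramblase *Ano6* alone was called (2.05, adjusted p = 0.000717), and the mean over its 2 rows gave 1.17 (adjusted p = 0.00402). That is 14.3% of the role, against 8.34% of all genes called higher. Of 21 genes of phagosome maturation 2 were called, the NADPH oxidase subunits *Cyba* (3.13) and *Cybb* (2.46), and the median log2 fold change was -0.20. Their share of 9.52% was near that of all genes. Of 14 nuclear receptors and cargo handling genes 5 were higher, including the lipid exporter *Abcg1* (2.37), *Tgfb1* (2.29) and *Il10* (2.14-fold, and dim at a mean of 3.32 in PBS livers). *Nr1h3*, or LXR alpha, a nuclear receptor known to raise *Mertk* in mouse macrophages, rose by 0.78 (adjusted p = 0.0308). Of 9 genes of TAM receptor shedding and signalling 3 were higher, the phosphatase *Ubash3b* (1.54) and the proteases *Adam10* (1.13) and *Adam17* (1.13), which cut *Axl* and *Mertk* proteins from the cell surface. Without PBS replicate 1 or PBS replicate 2, the calls ended for *P2ry2* (adjusted p = 0.108 and 0.0739), *Pirb* (0.0796 and 0.0507), *Il10* (0.139 and 0.126), *Nr1h3* (0.127 and 0.22), *Adam10* (0.0671 and 0.0868) and *Adam17* (0.108 and 0.0769). Without CSF1-Fc replicate 1 they ended for *P2ry2* (0.0559), *Il10* (0.0783), *Nr1h3* (0.122) and *Adam17* (0.067), and without CSF1-Fc replicate 2 for *Nr1h3* (0.0622). *P2ry2*, *Cd47* and *Nr1h3* were named after their values were seen.

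**Figure D4:**
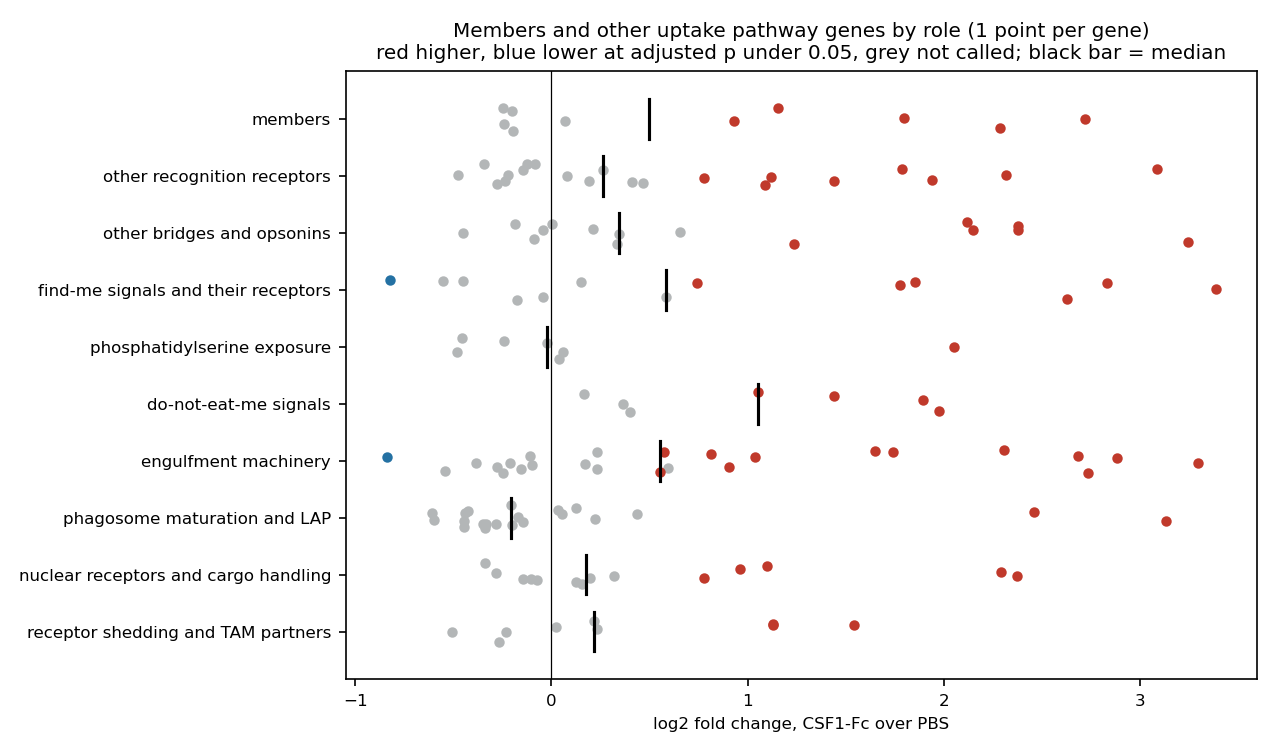
Log2 fold change, CSF1-Fc over PBS (horizontal axis), of the 10 members and of 132 other uptake genes by role, 1 point per gene; colour marks calls by limma (red for higher, blue for lower, grey for none), black bars are medians and LAP is LC3-associated phagocytosis. The members' points fall into 5 between 0.93 and 2.72 and 5 between -0.24 and 0.07, and the phagosome row has its median at -0.20.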

How the data were processed

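The deposited table holds the authors' normalised intensity on a linear scale for 35556 transcript rows, 1 column per mouse. The authors scanned the arrays in Command Console, checked them in Affymetrix Expression Console (version 1.1 in the submitters' processing notes) and then moved the data to the Genomics Suite of Partek. The sources used here do not give the background correction, normalisation or summarisation, and the labels name Trizol for extraction where the methods name RNA Bee. No depth applies to arrays.

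Log2 was taken with no pseudocount or filter and the fit used lmFit and eBayes of limma 3.58.1 under R 4.3.3, with a mean for each group (3 residual and 3.34 prior degrees of freedom). Benjamini-Hochberg adjustment covered all rows. The platform annotation gave 1 gene symbol for 21218 rows and several for 1881, and 12457 were unnamed here. A gene was represented by its brightest row. Correlation of log2 values was 0.983 to 0.990 between CSF1-Fc arrays, 0.991 between PBS arrays and 0.960 to 0.973 across groups.

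Members, gene lists and tests were chosen with earlier results of these data known. All 10 members were named, and in each role of the other uptake genes the 3 largest called changes or, where none was called, the gene with the lowest p. Genes named outside this rule are marked as such. On simulated data with the same group sizes (35556 rows, 35356 of them unchanged), the fit called 51 of 66 rows made to differ by 2 log2 units. It called 2 of 67 that differed by 1 and 0 of 67 that differed by 0.7, and it made 1 false call. Far more rows were called in the data (2052 higher and 1133 lower). The adjusted p depends on the share of changed rows, so the simulated counts do not give the recovery of the reported fit. Alternatives were quantile normalisation, centring on the array median or on secreted protein genes, a filter on rows with a mean log2 value under 5, rows of 1 symbol, the mean over rows of a gene, robust moderation with a trend, unmoderated variances, weights per array (statmod 1.5.0), a block for the replicate number, and leaving out each mouse.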

Additional observations from a re-analysis of the deposited data

How the results depend on the processing

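Of the 15 alternatives, 10 left all 5 members called higher, and none called a member lower. *Timd4* and *Axl* were called under all 15. With no moderation of the variance 2 members were higher: *Mertk* (1.16, adjusted p = 0.136), *Tgm2* (0.93, adjusted p = 0.167) and *Elmo1* (1.80, adjusted p = 0.0736) were not called, and the other uptake genes gave 20 higher and 1 lower. With each mouse left out in turn, members higher numbered 3 to 5, other uptake genes higher 29 to 46 (29 without PBS replicate 2) and lower 0 to 2, and log2 fold changes ranged from 1.05 to 1.31 for *Mertk*, 0.84 to 1.08 for *Tgm2* and -0.10 to 0.26 for *Gas6*. Without PBS replicate 1, PBS replicate 2 or CSF1-Fc replicate 1 there were 3 members higher, *Timd4*, *Axl* and *Elmo1*, and 0 other genes lower. Other uptake genes lower numbered 4 with quantile normalisation, 6 on rows of 1 symbol and 10 with array weights. The cause of these shifts was not tested. *Havcr1* and *Gulp1* were removed by the filter on dim rows. Over all genes, calls numbered 1570 higher and 743 lower, against 2017 and 1637 on rows of 1 symbol, 2313 and 2231 with array weights, 419 and 92 with no moderation, 849 to 1525 and 81 to 1046 with each mouse left out, 1182 and 481 with the replicate number as a block, and 1678 and 487 with arrays centred on secreted protein genes (24 measured, 0 called), which moved the median of all genes to 0.02.

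The labels do not say whether the replicate numbers pair the livers. Deviations from the group means correlated at -0.07 for number 1 and -0.25 for number 2. With 2 PBS livers the PBS deviations are mirror images of each other, so these correlations cannot decide whether the livers were paired. A fit with the replicate block, in which CSF1-Fc replicate 3 has no partner and so does not inform the change, gave 4 members higher, with *Tgm2* at 0.84 (adjusted p = 0.0714), and 38 other uptake genes higher and 1 lower.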
